A study of Mus musculus with 73 samples.

Results

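Tbx2 encodes a T-box transcription factor and is 1 of the 55291 genes counted in 73 hand-picked single cells of the mouse cochlea at postnatal day 14. Its row was read in all 73 cells, and every gene with a mean of 10 CPM (counts scaled to a common library total) or more was then compared with it and with Slc26a5. The cells form 1 group, labelled as inner hair cells that lack Casz1. The mice carried Atoh1Cre/+ together with Casz1flox/flox, the Cre reporter Ai47 (3xGFP) and the Flp reporter Rosa26-CAG-Frt-stop-Frt-tdTomato on the other Rosa26 allele, and Fgf8-Flpo/+. Cre under Atoh1 acts in the hair cell lineage and not in inner hair cells alone, so the double label rests on Fgf8, whose locus drives the Flp. Cells that carried both GFP and tdTomato were picked by eye. Without animal labels the 73 cells amount to 1 sample, and no p-value is given. Wild-type cells were not analysed here, so no value below is an effect of the deletion.

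Depth was 11027945 to 37183702 counts per cell (median 17333640), with 6954 to 10688 genes seen. A gene is called detected below at 10 CPM, which at these depths means between 110 and 372 counts. All 73 cells had the inner hair cell genes Slc17a8 (the vesicular glutamate transporter VGLUT3), Otof (otoferlin, the calcium sensor of transmitter release) and Gata3 (a zinc-finger transcription factor) at that level. Slc17a8 ranged over 436 to 2992 CPM with a median of 1346 CPM. Casz1 itself, the targeted zinc-finger gene, still gave counts: 55 of the 73 cells reached 10 CPM, with a median of 42.1 CPM. The labels do not say which exons the flox allele removes, so this level does not check the deletion.

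T-box factors bind DNA through the domain that names them, and TBX2 acts mostly as a repressor. Of the hair cells of the mouse cochlea, the inner ones make Tbx2 and the outer ones do not. It is known there as a switch between both fates: inner hair cells that lose it take on outer hair cell traits, and outer hair cells made to express it take on inner hair cell traits. Slc26a5 encodes prestin, the motor protein that lets outer hair cells change length, and is the usual mark of that fate.

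Tbx2 (ENSMUSG00000000093.6) lies on the plus strand of chromosome 11 at chr11:85832551-85841948 in mm10, with 3626 bases of exon in the GENCODE vM21 annotation. No other annotated gene overlaps it, so its counts are not shared with a gene on the opposite strand. The nearest gene upstream is the non-coding 2610027K06Rik on the minus strand. Its start lies 327 bases from the start of Tbx2, and the genes are read away from each other. It was detected in 23 cells and had a Spearman rank correlation (rho) of 0.33 with Tbx2 over the 73 cells. Bcas3, a coding gene further upstream on the same strand as Tbx2, was detected in 57 cells with a rho of 0.27. Downstream, Gm11444 lies on the minus strand with its 3′ end 4841 bases after Tbx2, and it reached 10 CPM in 1 cell. Tbx4, the T-box gene 44473 bases downstream, did so in 2 cells. The genes 2610027K06Rik and Gm11444, which have no official name, were chosen after their values were seen.

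Tbx2 ranged from 0 to 589 CPM over the 73 cells, with a median of 103 CPM. The exact 95% interval of that median over cells was 63.1 to 128 CPM, and the quartiles were 43.1 and 190 CPM. As counts the range was 0 to 11239, with a median of 1715, and by mean level (133 CPM) Tbx2 stood 1457th of all genes. Detection at 10 CPM held in 61 cells. The other 12 cells are 16.4% of the total (exact Clopper-Pearson 95% interval 8.79% to 26.95%, which covers the sampling of cells only). Of the 61 cells, 22 lay between 10 and 100 CPM, 22 between 100 and 200 CPM, 14 between 200 and 400 CPM and 3 above 400 CPM. Tbx2 was thus neither uniform nor split into off and on: the cells were spread over the whole range, with 12 cells below 10 CPM and 3 above 400 CPM.

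Tbx2 varied more from cell to cell than most genes of its level. Its coefficient of variation (SD over mean) was 0.951, against a median of 0.74 for the 1078 genes with a mean of 100 to 200 CPM. Of those 1078 genes, 118 had a higher coefficient, and 176 were detected in fewer cells than Tbx2. The median gene among them was detected in 67 cells.

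**Figure D1:**
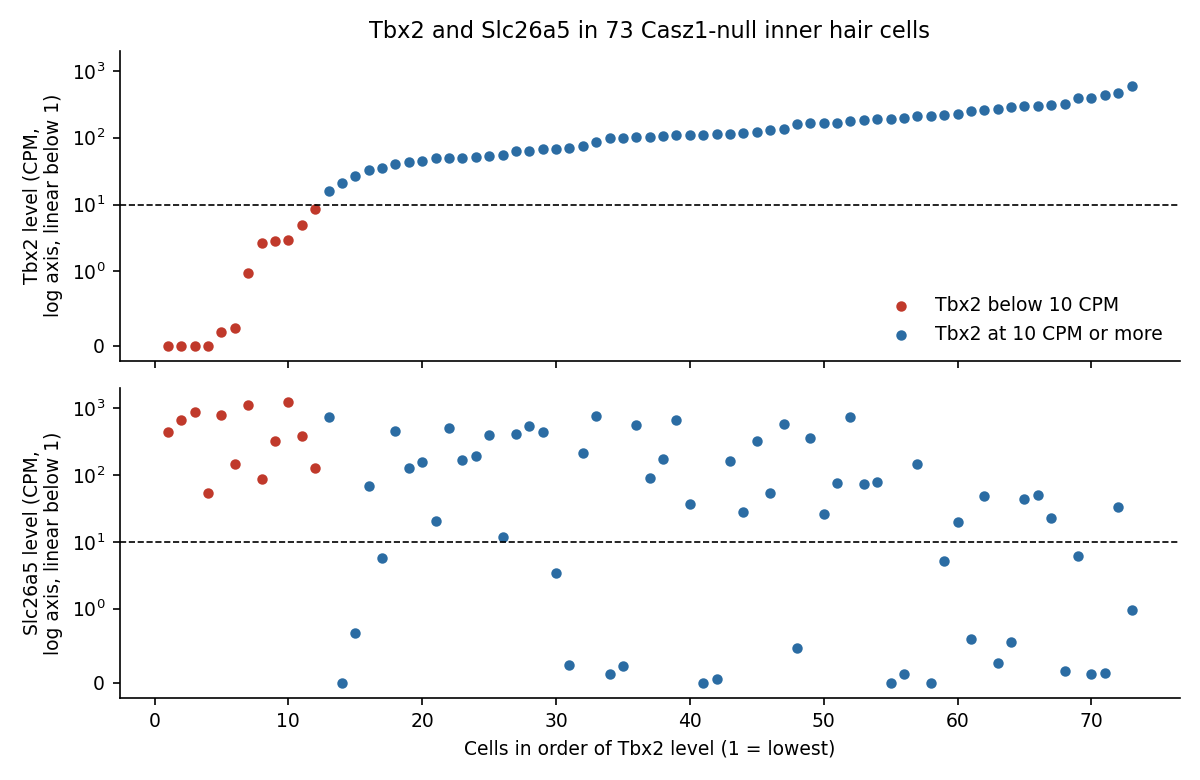
Tbx2 (upper panel) and Slc26a5 (lower panel) in each of the 73 cells, in CPM on log axes that turn linear below 1 CPM, with 1 point per cell in order of its Tbx2 level, red for Tbx2 below 10 CPM, blue for the other cells, and a dashed line at 10 CPM. The 12 red cells all have Slc26a5 above the line, from 53.9 to 1229 CPM, and the 3 cells highest in Tbx2 have Slc26a5 at 33.7 CPM or less.

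The 12 cells below 10 CPM were not all alike in Tbx2. No count was seen in 4 of them, the libraries numbered 29, 34, 67 and 70 in the labels. Libraries 60, 52 and 35 had 0.189, 0.241 and 0.979 CPM. Libraries 3, 4, 64, 46 and 15 had 2.66, 2.81, 2.91, 4.91 and 8.72 CPM. The lowest level above the threshold was 15.9 CPM, so no cell lay between 8.72 and 15.9 CPM. Depth did not set these cells apart: their totals were 12706408 to 24543427 counts with a median of 17136363, against a median of 17333640 in the other 61 cells.

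Inner hair cell genes that define the type were present in the 12 cells. Slc17a8 was at 436 to 2992 CPM in them (median 1051 CPM), against 468 to 2301 CPM in the other 61 cells (median 1365 CPM). Otof was at 1313 to 3621 CPM in the 12 cells (median 2599 CPM) and at 947 to 6440 CPM in the other cells (median 2942 CPM). The Otof range of the 12 cells lay within that of the other cells, which reached higher. Their Slc17a8 range reached past that of the others at both ends. For both genes the median was lower in the 12 cells. Calb2 (calretinin, a calcium buffer) was lower in the 12 cells, with a median of 1694 CPM and a range of 393 to 12321 CPM, against a median of 8775 CPM and a range of 347 to 20245 CPM in the others. Of the 11 inner hair cell genes on the list besides Tbx2, the median cell had 8 detected in both sets of cells. That equal median hides members that moved apart. Atp2a3 was detected in 5 of the 12 cells and 48 of the other 61, with medians of 3.98 and 199 CPM. Slc7a14 was detected in 6 and 57 cells, Shtn1 in 6 and 44, and Dnajc5b in 11 and 61. In the other direction, Fgf8 was detected in 12 and 39 cells, Rprm in 6 and 11, and Brip1 in 4 and 5.

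All 12 cells also had the outer hair cell genes Slc26a5, Ocm and Sri detected. Among the other 61 cells Ocm was detected in 56 and Sri in 59, so detection of these genes was common to nearly all cells. Slc26a5 was at 53.9 to 1229 CPM in the 12 cells (median 412 CPM), against 0 to 772 CPM in the other 61 cells (median 44.4 CPM), of which 39 had it detected. Ocm (oncomodulin, a calcium buffer of outer hair cells) was at 214 to 17081 CPM in the 12 cells (median 6210 CPM), against 0 to 16888 CPM in the others (median 1917 CPM). Sri (sorcin, a calcium-binding protein) was at 601 to 1974 CPM in the 12 cells and at 0.344 to 1668 CPM in the others. The medians stood apart while the ranges overlapped. Ikzf2 (Helios), a factor that drives the mature outer hair cell programme, was detected in 6 cells of all 73, 2 of them among the 12. Those 6 cells had Tbx2 at 0, 0.241, 43.1, 264, 313 and 464 CPM, so they were found at both ends of its range. Bcl11b reached 10 CPM in 1 cell, whose Tbx2 was 432 CPM, and Insm1, a factor of immature outer hair cells, had a median and a maximum of 0 CPM.

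Over the 73 cells Tbx2 and Slc26a5 had a rho of -0.52, the 4th lowest that Tbx2 had with any of the 8618 genes compared. All points are cells of 1 sample whose values share a library total. At 10 CPM both genes were detected in 39 cells, Tbx2 alone in 22 and Slc26a5 alone in 12, and no cell lacked both. At 100 CPM both were present in 9 cells, Tbx2 alone in 30, Slc26a5 alone in 23 and neither in 11. Every cell under 10 CPM for either gene thus had the other. That count does not by itself show an inverse relation. Gata3, detected in all 73 cells and at a rho of 0.26 with Tbx2, also left 0 cells with neither gene, as did Ocm. Still, 39 of the 73 cells had both genes detected.

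The cells were next placed by Slc26a5. In the 22 cells with Slc26a5 under 10 CPM, Tbx2 was detected in all and ranged over 20.9 to 589 CPM (median 193 CPM). In the 19 cells with Slc26a5 from 10 to 100 CPM it ranged over 0 to 464 CPM (median 165 CPM), with 17 cells detected. In the 32 cells with Slc26a5 at 100 CPM or more it ranged over 0 to 210 CPM (median 50.6 CPM), with 22 detected. The upper edge of Tbx2 was thus lower in the cells with most Slc26a5, while the lower edge reached 0 in both of the upper ranges.

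The extremes showed the same shape. The 17 cells with Tbx2 at 200 CPM or more had Slc26a5 at 0 to 144 CPM, and the 17 cells with Slc26a5 at 400 CPM or more had Tbx2 at 0 to 180 CPM. The highest Tbx2 was 589 CPM in library 45, where Slc26a5 was 0.977 CPM. The next was 464 CPM in library 39, where Slc26a5 was 33.7 CPM. Library 14 followed with Tbx2 at 432 CPM and Slc26a5 at 0.138 CPM. Intermediate cells existed too: the 9 cells with both genes at 100 CPM or more had Tbx2 at 102 to 210 CPM and Slc26a5 at 144 to 741 CPM.

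**Figure D2:**
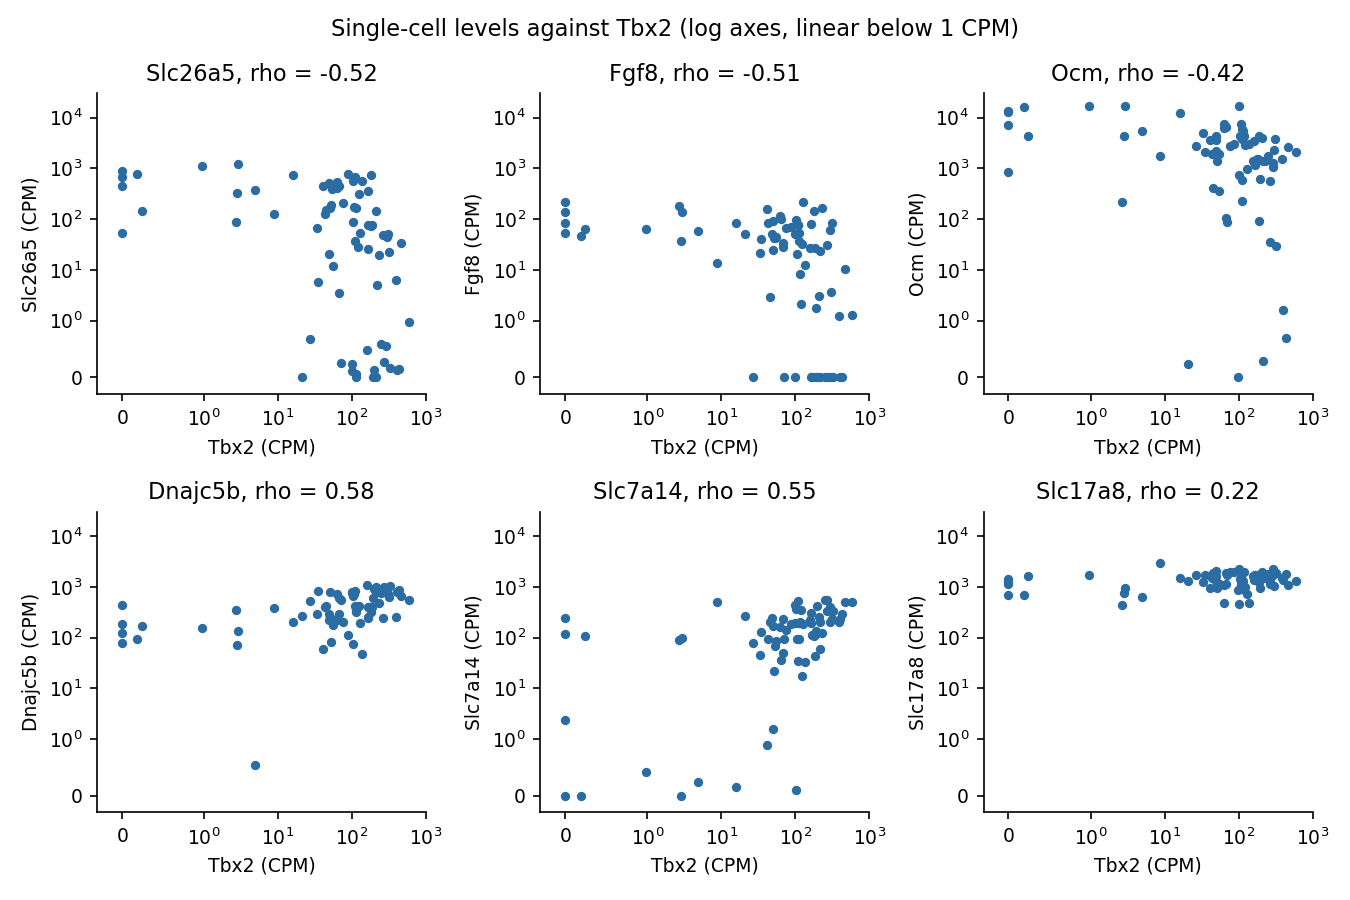
Slc26a5, Fgf8 and Ocm (upper row) and Dnajc5b, Slc7a14 and Slc17a8 (lower row) against Tbx2 on the horizontal axis, 1 point per cell for 73 cells, in CPM on log axes that turn linear below 1 CPM, with each panel's rho above it. No cell lies at the lower left of the Slc26a5 and Fgf8 panels, where both genes would be under 10 CPM, while Slc17a8 stays between 436 and 2992 CPM across the whole range of Tbx2.

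Fgf8, a secreted growth factor made by inner hair cells early in development, gave the same 4 counts as Slc26a5 at 10 CPM: 39 cells with Tbx2 and Fgf8, 22 with Tbx2 alone, 12 with Fgf8 alone and 0 with neither. Tbx2 was at 0 to 464 CPM (median 63.1 CPM) in the 51 cells with Fgf8 detected. It was at 26.7 to 589 CPM (median 203 CPM) in the 22 cells with Fgf8 under 10 CPM, and all of those had Tbx2 detected. The rho of Tbx2 with Fgf8 was -0.51, although both are known as inner hair cell genes. The 2 sets of 22 cells were not the same, since 14 cells had Slc26a5 and Fgf8 both under 10 CPM. Because the Flp that labelled the cells came from the Fgf8 locus, the pick itself depended on Fgf8 at some earlier time, and the part of the pick in this relation was not tested.

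The targeted gene followed Tbx2 weakly, with a rho of 0.15 between Tbx2 and Casz1. Tbx2 and Casz1 were both detected in 45 cells, Tbx2 alone in 16, Casz1 alone in 10 and neither in 2.

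Of the 8618 genes compared, 12 (0.139% of the genes) had a rho with Tbx2 of 0.5 or more and 7 (0.0812%) of -0.5 or less. With Slc26a5 the counts were 116 genes (1.35%) at 0.5 or more and 75 (0.87%) at -0.5 or less, Tbx2 among the last. Tbx2 therefore had fewer such genes on both sides. At 0.4 in size, Tbx2 had 54 genes (0.627%) on the positive side and 60 (0.696%) on the negative side, and Slc26a5 had 251 (2.91%) and 218 (2.53%). Over all genes the median rho with Tbx2 was 0.011, and 4589 were positive against 4029 negative. The genes nearest to the threshold were Tnc at -0.50 (unrounded, short of it) and a gene without an official name at 0.49 just outside, and Kncn at 0.51 and Aqp11 at -0.50 just inside. The genes named next were chosen for their rho over these cells, so their levels in the cells low in Tbx2 describe that choice and support nothing.

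The 12 genes that went with Tbx2 include known inner hair cell genes, kinases and the hair cell genes Ush1c and Kncn. Ankrd13d, which encodes a ubiquitin-binding protein, had the highest rho with Tbx2 at 0.60, and its rho with Slc26a5 was -0.54. Ankrd13d was detected in 2 of the 12 cells below 10 CPM of Tbx2 and in 40 of the other 61 cells, with a median of 0 CPM in the 12 and of 104 CPM in the others. The kinase genes Map4k4 and Rps6ka2 followed, both at 0.59 with Tbx2, and had -0.64 (Map4k4) and -0.74 (Rps6ka2) with Slc26a5. Map4k4 was detected in every cell, with a median of 165 CPM in the 12 cells low in Tbx2 and of 483 CPM in the other cells.

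Dnajc5b, a J-protein of the cysteine-string family, had a rho of 0.58 with Tbx2 and of -0.63 with Slc26a5. Its median was 143 CPM in the 12 cells low in Tbx2 and 420 CPM in the other cells. Slc7a14, a member of the cationic amino acid transporter family known from inner hair cells and the retina, had 0.55 with Tbx2 and -0.58 with Slc26a5. Slc7a14 was detected in 6 of the 12 cells, with a median of 46.7 CPM, and in 57 of the other 61 cells, with a median of 189 CPM. Both genes stand on the list of inner hair cell genes, and Dnajc5b kept a level above 10 CPM in 11 of the 12 cells.

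Ush1c encodes harmonin, a scaffold of the hair bundle's tip links, and Kncn encodes kinocilin, a protein of the hair cell cuticular region. Their rho with Tbx2 was 0.53 (Ush1c) and 0.51 (Kncn), and with Slc26a5 -0.49 (Ush1c) and -0.55 (Kncn). Both were detected in all 73 cells, so their relation with Tbx2 was one of level. Selenos, a selenoprotein of the endoplasmic reticulum, had 0.57 with Tbx2, and Tomm7, a subunit of the mitochondrial import pore, had 0.55. Osbp2 (an oxysterol-binding protein) and Igfbp5 (a secreted binder of insulin-like growth factors) both had 0.52. Igfbp5 was detected in 4 of the 12 cells low in Tbx2 and in 49 of the other 61. Its median was 0.914 CPM in the 12 cells and 2062 CPM in the others.

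Lrrc10b, which encodes a leucine-rich repeat protein, had a rho of 0.52 with Tbx2 and of -0.28 with Slc26a5, the weakest of the 12 with Slc26a5 in size. Its call depended on the measure, since Pearson r of log2(CPM + 1) between Lrrc10b and Tbx2 was 0.29. Next below the threshold came Plekhg6, Ripor3 and Prkra (an activator of the kinase PKR), each at 0.48 with Tbx2.

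Among the 7 genes on the negative side, Car2 (carbonic anhydrase, which interconverts carbon dioxide and bicarbonate) had the lowest rho with Tbx2 at -0.55. Car2 was at 140 to 4247 CPM (median 1227 CPM) in the 12 cells low in Tbx2, against 0 to 3875 CPM (median 137 CPM) in the other 61 cells. Calb1 (calbindin, a calcium buffer) followed at -0.53. Calb1 was detected in 11 of the 12 cells, with a median of 3290 CPM, and in 35 of the other 61, with a median of 85.3 CPM. Aqp11, an aquaporin, had -0.50, and its median was 987 CPM in the 12 cells and 47.7 CPM in the others. Fam104a was at -0.52 and Sri at -0.51 (Pearson r of log2(CPM + 1) -0.39), and Slc26a5 and Fgf8 complete the 7.

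With Slc26a5 these genes had positive values: 0.55 for Car2, 0.77 for Calb1, 0.84 for Aqp11, 0.72 for Sri, 0.58 for Fgf8 and 0.39 for Fam104a. Below them came Tnc (tenascin-C, a matrix protein), Dock9 (a guanine nucleotide exchange factor for Cdc42), Adgrb3 (an adhesion receptor), Rab27b (a vesicle GTPase), Ccdc88c, Skp1a (a subunit of ubiquitin ligases), Chst4 (a sulfotransferase) and Card19, from -0.50 for Tnc to -0.47 for Card19. Several of these were detected in few cells. Tnc was detected in 10 of the 12 cells low in Tbx2 and in 17 of the other 61, and Rab27b in 10 of the 12 and in 16 of the 61. Skp1a was high in every cell, at 11373 to 26104 CPM in the 12 and at 5264 to 29777 CPM in the others.

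**Figure D3:**
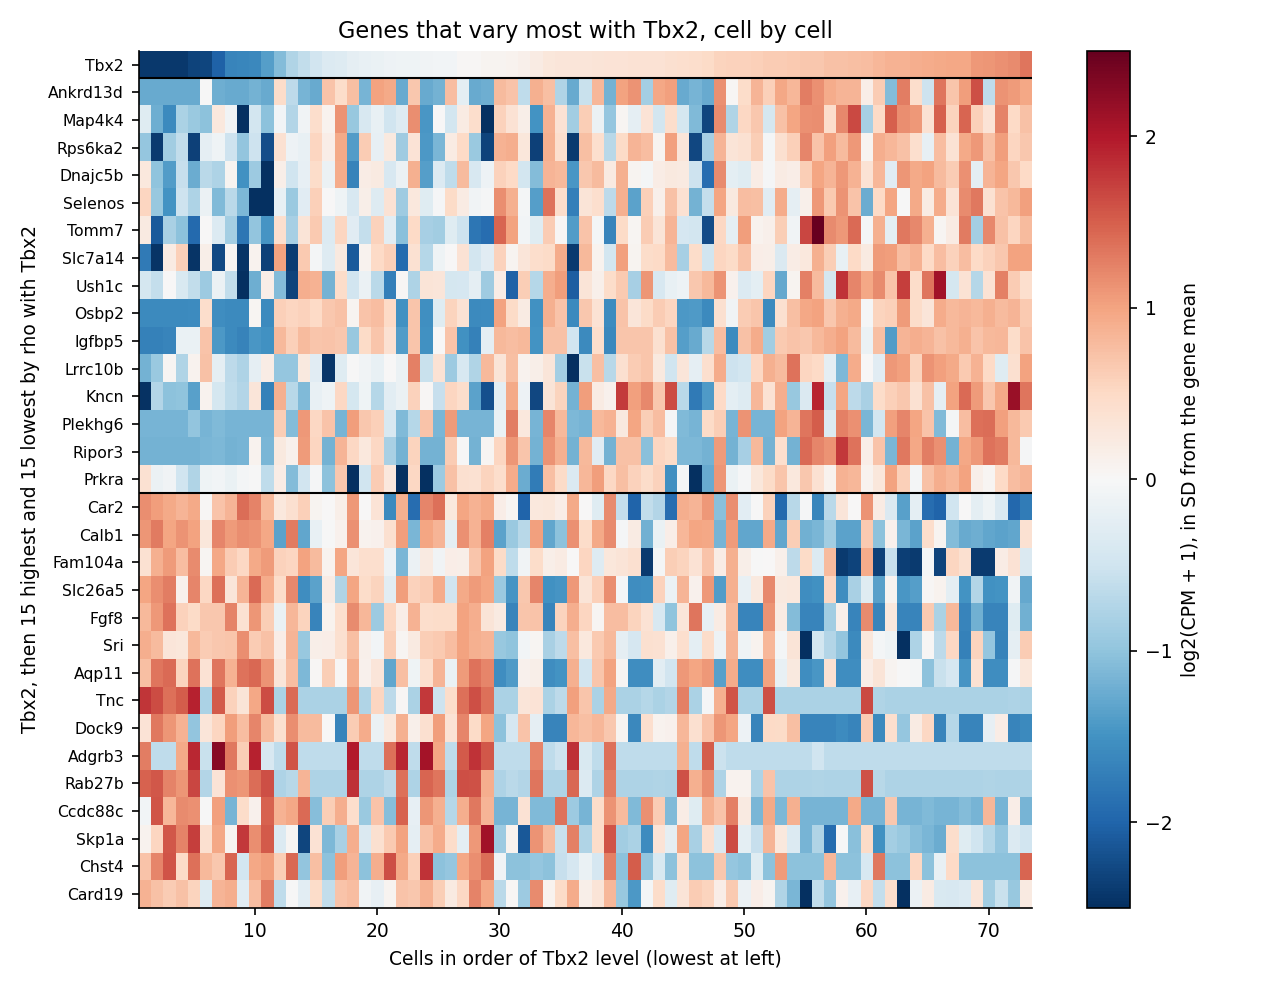
Levels of Tbx2 (top row), the 15 genes highest and the 15 lowest by rho with Tbx2, Slc26a5 among the last, with 1 column per cell in order of Tbx2 and colour for log2(CPM + 1) in SD from each gene's mean, limited at the ends of the colour scale. The genes of the upper block are mostly blue (low) at the low end of Tbx2 and those of the lower block mostly red (high) there, with many single cells out of order.

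Leaving Tbx2 and Slc26a5 out, 10 of the 12 genes that went with Tbx2 (83.3%) were among the 74 at -0.5 or less with Slc26a5, of which they make up 13.5%. Likewise 5 of the 6 genes that went against Tbx2 (83.3%) were among the 116 at 0.5 or more with Slc26a5 (4.31% of those). No gene passed 0.5 with both in the same direction. Both sets of values come from the same 73 cells and both genes are related to each other, so the overlap adds no separate evidence. The 2 genes that went with Tbx2 without passing 0.5 in size with Slc26a5 were Ush1c (-0.49) and Lrrc10b (-0.28). On the other side it was Fam104a (0.39). Among the 74 genes against Slc26a5, rho with Tbx2 was 0.16 to 0.60 (median 0.37), so none of them was negative with Tbx2. Among the 116 genes with Slc26a5 it was -0.55 to -0.21 (median -0.37).

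**Figure D4:**
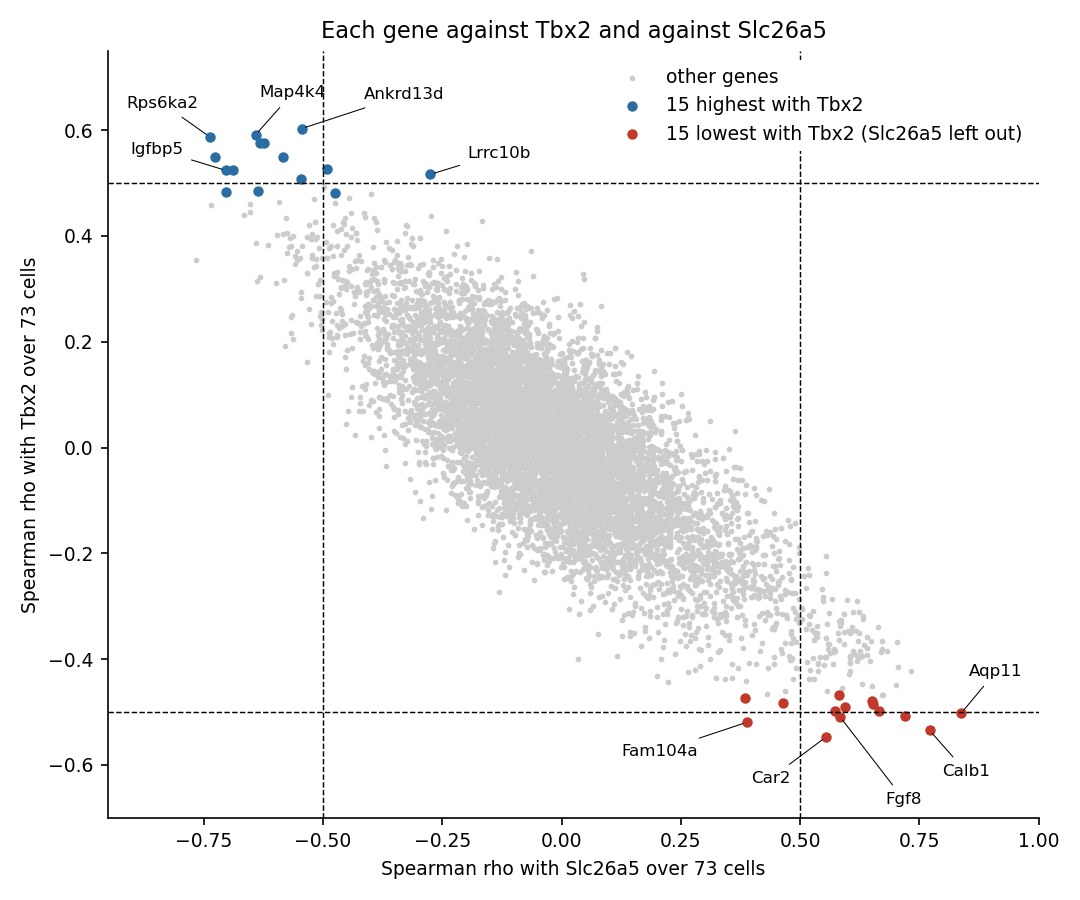
Spearman rho over 73 cells of each gene with Tbx2 (vertical axis) and with Slc26a5 (horizontal axis), 1 point per gene, with dashed lines at 0.5 in size and the 15 highest (blue) and 15 lowest (red, Slc26a5 itself left out) genes for Tbx2 in colour. The points run from upper left to lower right, and Lrrc10b lies nearest to the middle of the blue points along the Slc26a5 axis, at -0.28.

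When the ranks were corrected for Slc26a5, no gene kept 0.5 in size with Tbx2. The highest corrected values of rho were 0.45 for Lrrc10b, whose uncorrected Pearson r was 0.29, and 0.45 for Ankrd13d, and the lowest was -0.45 for Rbm6, which encodes an RNA-binding protein. After them came Ppil3 (0.41) and Ikbip (0.40) on the positive side, and Fam104a (-0.40) and Mrps5 (-0.40, a mitochondrial ribosomal protein) on the negative side. Ppil3 and Ikbip were detected in 25 and 24 cells and had medians of 0.041 and 0 CPM, so their values rest on few cells. Car2 had -0.37 after the correction, against -0.55 before it. Aqp11 had -0.15, against -0.50 before it.

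Within the 61 cells with Tbx2 at 10 CPM or more, rho between Tbx2 and Slc26a5 was -0.36. There 1 gene, Slc7a14 at 0.53, reached 0.5 and none reached -0.5. Osbp2 had 0.34 and Aqp11 -0.28 with Tbx2 in those cells. These values cover fewer cells and a narrower range of Tbx2 than the counts of 12 and 7 genes over all 73 cells.

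Properties of the libraries moved with Tbx2 as well. The share of counts from mitochondrial genes ran from 1.81% to 13.0%, with medians of 5.06% in the 12 cells low in Tbx2 and 6.37% in the other 61, and had a rho of 0.34 with Tbx2 and -0.49 with Slc26a5. With ranks corrected for that share, Tbx2 and Slc26a5 had -0.43, 5 genes reached 0.5 with Tbx2 and none -0.5. The share from ribosomal protein genes had medians of 2.22% in the 12 cells and 1.84% in the others, and a rho of -0.38 with Tbx2 and 0.67 with Slc26a5. Corrected for it, Tbx2 and Slc26a5 had -0.38. Total counts (-0.07 with Tbx2, 0.27 with Slc26a5) and the number of genes with a count (0.13 with Tbx2, -0.30 with Slc26a5) moved less with Tbx2. The part of these properties in the relations above was not tested further.

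Markers of other cochlear cell types were scarce: 54 of 64 were detected in fewer than 10 cells. The summed level of the 15 supporting cell markers was 0 to 1367 CPM (median 7.80 CPM) in the 12 cells low in Tbx2 and 0 to 373 CPM (median 1.88 CPM) in the other 61. Prox1, a defining gene of those cells, was detected in none. The 8 glia markers summed to 0 to 498 CPM (median 146 CPM) in the 12 cells and 0 to 229 CPM (median 20.7 CPM) in the others, with Mbp and Pmp22, the myelin genes, detected nowhere. Among them Sox10, a factor of glia and of the early otic epithelium, had a rho of -0.40 with Tbx2 and 0.62 with Slc26a5, and it was detected in 10 of the 12 cells and in 17 of the other 61. The 8 neuron markers summed to medians of 672 CPM in the 12 cells and 512 CPM in the others, and the 8 stria markers to medians of 63.3 CPM in the 12 cells and 58.8 CPM in the others. The mesenchyme, immune and blood, and endothelium lists had medians of at most 15.6 CPM in either set of cells.

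Library 67, which had no Tbx2 count, held 1367 CPM of supporting cell markers, 698 CPM of it from Epyc, and 330 CPM of mesenchyme markers. Among the other 11 cells low in Tbx2 the highest supporting cell sum was 107 CPM. Without library 67, 11 of 72 cells lay below 10 CPM and the rho between Tbx2 and Slc26a5 was -0.53. In 26 cells at least 1 of the 54 rare markers reached 50 CPM, 5 of them among the 12. Of the 47 cells without such a marker, 7 (14.9%) had Tbx2 below 10 CPM, and the rho with Slc26a5 was -0.51.

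The promoters of the genes nearest to Tbx2 in pattern were searched for the site that T-box proteins bind. The motif AGGTGTGA (TCACACCT on the other strand) and the shorter GGTGTGA, which lies within it, were read on both strands in windows from 250 bases before to 50 bases after RefSeq starts (GRCm38.p6, the same build as mm10). Of the 15 genes highest with Tbx2, 11 had a window, and of the 15 lowest, 9 did. The longer motif was in 0 of 11 and 0 of 9, against 0.881% of the 6812 expressed genes with a window. The shorter one was in 2 of 11 (Selenos and Osbp2, 18.2%) and in 0 of 9, against 3.95% of the 6812. With 2 genes these shares are a description, a match is not a bound site, and the windows hold no binding data. Both windows are printed up to the start, 5′ to 3′ on the gene's strand, to show where the match lies, with the motif in capitals. In Selenos (plus strand, chr7:66079399-66079648) the match is on the opposite strand and its first base lies 95 bases before the start. In Osbp2 (minus strand, chr11:3722228-3722477) it is on the gene's own strand, 225 bases before the start.
Selenos: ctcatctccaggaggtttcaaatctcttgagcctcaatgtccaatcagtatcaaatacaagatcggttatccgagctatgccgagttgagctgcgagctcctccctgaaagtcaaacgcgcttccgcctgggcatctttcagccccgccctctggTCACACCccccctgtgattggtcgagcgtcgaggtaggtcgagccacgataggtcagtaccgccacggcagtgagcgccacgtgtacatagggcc
Osbp2: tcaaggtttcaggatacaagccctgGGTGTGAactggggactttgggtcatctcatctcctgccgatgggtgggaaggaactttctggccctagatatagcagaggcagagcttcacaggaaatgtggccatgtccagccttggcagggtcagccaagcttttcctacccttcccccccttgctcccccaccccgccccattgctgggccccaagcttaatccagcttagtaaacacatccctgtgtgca

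Gene lists were then read by their rho with Tbx2, beside a median of 0.011 over all genes. Of the 11 inner hair cell genes besides Tbx2, 10 passed the mean of 10 CPM, 8 of them positive, with a median of 0.30. Dnajc5b and Slc7a14 reached 0.5, Calb2 had 0.36, Atp2a3 (the calcium ATPase SERCA3) 0.35 and Shtn1 0.34. Gata3, Slc17a8 and Otof, the genes that define the type, were lower at 0.26, 0.22 and 0.17. Rprm had -0.31 and Fgf8 -0.51, so 2 genes of the list ran the other way. With Slc26a5 the median of the list was -0.41, and corrected for Slc26a5 its median with Tbx2 was 0.066.

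Of the 14 outer hair cell genes, 10 passed the mean, and 9 of these had a negative rho with Tbx2, with a median of -0.35. After Slc26a5 and Sri came Mlf1 and Ocm, both at -0.42, Chrna10 (an acetylcholine receptor subunit of the efferent synapse) at -0.37 and Lbh at -0.32. Kcnn2, the potassium channel of the efferent synapse, had -0.28, Lmod3 -0.16, Strip2 -0.12 and Car7 0.041. Corrected for Slc26a5, Mlf1 had -0.35 with Tbx2 and Ocm had -0.076. Chrna9, the partner subunit of Chrna10 and counted here as a general hair cell gene, had -0.37 with Tbx2 and 0.67 with Slc26a5.

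**Figure D5:**
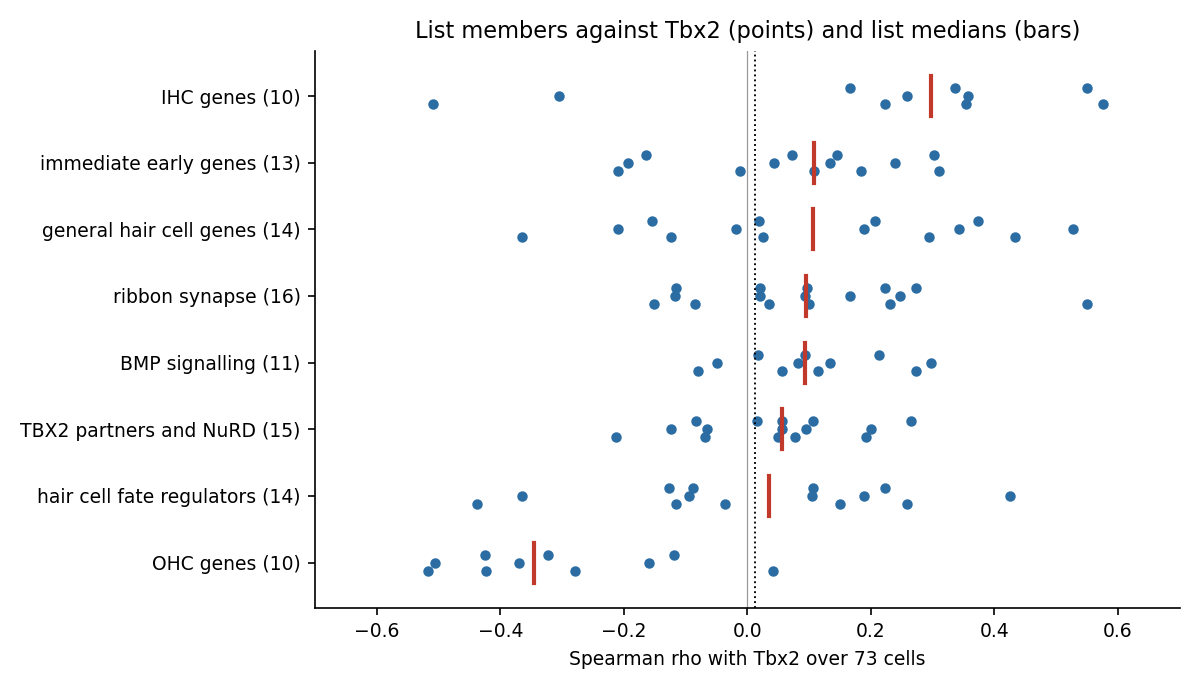
Spearman rho with Tbx2 over 73 cells for the members that passed a mean of 10 CPM, in the 8 gene lists shown, each with 10 to 16 such members, 1 point per gene, with a bar at each list's median and a dotted line at the median of all genes, 0.011. Inner hair cell genes lie mostly to the right (median 0.30), outer hair cell genes mostly to the left (median -0.35), and the other 6 lists shown have medians of 0.035 to 0.11.

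The genes listed as general to hair cells had a median of 0.11 over 14 genes, 9 of them positive. Not all of them were neutral between the types by their rho with Slc26a5, which was 0.67 for Chrna9 and -0.45 for Pvalb. Pvalb (parvalbumin) had 0.43 with Tbx2 and Cib2, a subunit of the transduction complex, 0.34. Myo7a, the motor of the hair bundle, had 0.018. The 16 genes of the ribbon synapse, which feeds transmitter release in inner hair cells, had a median of 0.095, with 12 positive. Rims2 and Erc2, both of the active zone, had 0.27 and 0.25 with Tbx2, and Cacna1d, the calcium channel there, had -0.15. Slc17a8, Otof and Slc7a14 stand both on the ribbon synapse list and on the inner hair cell list. Slc7a14 alone on the ribbon synapse list passed 0.5. The immediate early list, of genes that respond to stress and dissociation, also holds the chaperone genes Hspa1a, Hspa1b, Hspa8 and Dnajb1. It had a median of 0.11 over 13 genes with 9 positive.

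Among 14 regulators of hair cell fate the values split evenly, 7 positive and 7 negative, with a median of 0.035. Rorb, a nuclear receptor, had the highest rho with Tbx2 at 0.43, and Gata3 had 0.26. Rorb was at 69.2 to 875 CPM (median 300 CPM) in the 12 cells low in Tbx2 and at 175 to 1614 CPM (median 711 CPM) in the other 61. Eya1, a transcriptional co-activator of early otic development, had -0.37. Its median was 180 CPM in the 12 cells and 59.5 CPM in the others. Pou4f3, a factor that hair cells need to survive, had 0.19.

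To compare levels between regulators, CPM was divided by exon length. On this scale Tbx2 had a median of 28.5 CPM per kb, the 5th of the 24 genes set in order. Pou4f3 (188 CPM per kb), Gata3 (63.4), Rorb (58.6) and Gfi1 (42.6) were above it. Slc26a5 (23.8) was below it, well within the range of 0 to 163 CPM per kb that Tbx2 itself had from cell to cell. Eya1 (10.2), Barhl1 (9.83) and Casz1 (3.45) were lower.

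Other T-box genes were nearly silent. Of the 16 besides Tbx2, 10 were detected in no cell and 4 of those had no count at all. Tbx3, the closest relative of Tbx2 and also a repressor, had counts in 3 cells and at most 0.626 CPM. Tbx6 was detected in 9 cells, Tbx15 in 5, Tbx4 in 2, and Tbx21 and Tbr1 in 1 each. Mga, a large T-box protein that also carries a MAX-binding domain, was the exception, with a median of 97.7 CPM, 6.37 CPM per kb and detection in 57 cells. Its rho with Tbx2 was 0.11. In the 12 cells with Tbx2 below 10 CPM, Mga was detected in 9, Tbr1 in 1 and the other T-box genes in 0.

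Genes of the repressor complexes that work with TBX2 elsewhere were expressed, and none passed 0.5 in size with it. The 15 partners and NuRD (nucleosome remodelling and deacetylase) genes that passed the mean had a median rho of 0.055, 10 of them positive, with 0.26 for Rbbp7. Hdac1 and Hdac2, the deacetylases, had 0.20 and 0.19. Of 12 genes that TBX2 represses in other tissues, 2 passed the mean, and neither passed 0.5 in size. Cdkn1a (p21, a brake on the cell cycle) was detected in all 73 cells and had -0.41 with Tbx2 and 0.45 with Slc26a5.

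BMP signals, which switch on Tbx2 in other embryonic tissues, were represented by 11 genes with a median of 0.093, 9 of them positive. Bmpr1a, a receptor, had 0.30, and Id1, a target, had 0.27. In the FGF list 2 genes passed the mean, Fgf8 at -0.51 and its feedback phosphatase Dusp6 at -0.18. None of the BMP genes passed 0.5 in size.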

How the data were processed

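The table the authors deposited holds raw counts for 73 single cells. Smart-Seq HT libraries carry no molecular identifiers, per the labels' protocols, so counts include PCR copies. HISAT2 2.2.1, StringTie 2.2.1, featureCounts 2.0.1 and mm10 are named in the submitters' processing notes, while the release of the gene annotation was not stated in any source read here. The reporter row WPRE (0.0161% of counts) stayed out of the totals.

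Here counts were divided by library totals (CPM), and Spearman rho over the 73 cells was computed for genes averaging at least 10 CPM. A gene was called at 0.5 in size. Corrected values are correlations of ranks after regression on the ranks of a covariate. Cells are not replicates, so no test was run and p-values are not given, and depth (11027945 to 37183702 counts) sets counting error only. No 2 libraries were identical over 2628 pairs. Symbols matched GENCODE vM21 for 53292 of 55291 rows. The correlation step was checked on simulated counts in which Tbx2 had counting noise only and most genes were independent of it. That check does not show how the threshold behaves where genes also vary with Slc26a5. Genes named are list members, the 15 highest and 15 lowest with Tbx2, the 10 at each end after correction for Slc26a5 and neighbours of Tbx2, without unnamed genes unless stated. The gene and the 18 lists were chosen with earlier results of these data known, so they support nothing by their choice. Alternatives were other thresholds, edgeR 4.0.16 TMM scaling (R 4.3.3), totals without mitochondrial genes, thinning to the lowest total, Pearson r, covariates and subsets of cells. Calculations ran in Python 3.11.15 with scipy 1.17.1, pandas 2.3.3, numpy 2.4.6 and matplotlib 3.10.9. A few list members are not reported here.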

Additional observations from a re-analysis of the deposited data

Results flagged for a closer look

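The WPRE row, a reporter element kept out of every comparison, had counts in all 73 cells, with at least 725 in each, and no cell serves as a control without the reporter. WPRE had a rho of 0.23 with Tbx2 and -0.08 with Slc26a5 over the 73 cells.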

How the results depend on the processing

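Tbx2 was detected in 83.6% of cells at 10 CPM, in 94.5% at 1 count and in 68.5% at 50 CPM. With edgeR TMM scaling the median was 104 CPM, and 12 genes passed 0.5 and 6 passed -0.5. The counts of 12 and 7 genes became 54 and 60 at 0.4 in size, 5 and 0 with ranks corrected for the mitochondrial share, 0 and 0 corrected for Slc26a5, and 1 and 0 in cells with Tbx2 at 10 CPM or more. The count of 7 became 4 corrected for the number of genes and 2 corrected for the library number. The median rho of inner hair cell genes (0.30) became 0.19 corrected for the mitochondrial share, 0.066 corrected for Slc26a5 and 0.15 in cells with Tbx2 at 10 CPM or more. Corrected for Slc26a5, the medians were -0.17 for outer hair cell genes, -0.027 for the ribbon synapse list and -0.0033 for the immediate early list. In cells with Tbx2 at 10 CPM or more the partner genes had -0.054, and rho between Tbx2 and Slc26a5 was -0.36. The cause of these shifts was not tested. The 18 called genes other than Slc26a5 had the same sign in all 198 values under 11 alternatives, 120 of them at 0.5 or more in size. Those genes were chosen for their rho in these cells and the alternatives reuse the same counts, so the shared sign adds no separate evidence. No paired analysis was possible because the cells form 1 group. Values near 10 CPM rest on at least 110 counts, and with no animals named the spread between animals is unknown for every value.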
